A study of Mus musculus with 4 samples.

Results

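The 10 genes described here encode interleukin 1, its antagonists, TNF, IL-6, an inflammasome sensor and the feedback inhibitors of NF-kB, taken by symbol from the 32285 genes of the count files. They are the agonists Il1b and Il1a, the antagonists Il1rn and Il1r2, the cytokines Tnf and Il6, the sensor Nlrp3 and the feedback genes Nfkbia, Tnfaip3 and Nfkbiz. Each was followed across tumour, myeloid, neutrophil and lymphoid cells of DLA (Dalton's lymphoma ascites) tumors in 4 single-cell libraries. The 2 control libraries (Control 1 and Control 2) and the 2 libraries of mice given SP11, an HSP90 inhibitor, at 30 mg/kg orally for 17 days (Treated 1 and Treated 2) all came from Swiss albino mice injected intraperitoneally with DLA cells. Whether the control mice received vehicle is unsettled, since GEO labels them untreated while the supplement describes a vehicle group, and the age and sex of the mice are not given in the sources used here. The methods speak of 2 independent sets of samples and the supplement of biological replicates, but no source ties a library to a mouse. The p-values therefore refer to 2 libraries per group. In edgeR the spread between libraries was pooled over genes, so a gene's own spread between its libraries weighed little in its p-value.

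After filtering, 916 and 566 control cells and 1831 and 1091 treated cells remained, with 9739676, 9574906, 12999822 and 13024964 UMIs (unique molecular identifiers, 1 per captured transcript). Wherever 4 values follow each other they belong to Control 1 and Control 2, then Treated 1 and Treated 2. Cells were gated by UMIs of marker genes, and no member is a marker. The tumour gate (keratins and Epcam) held 852, 525, 1253 and 579 cells, the monocyte/macrophage gate 32, 21, 231 and 141, and the neutrophil gate 4, 1, 17 and 50. The B cell gate held 1, 0, 154 and 149 cells and the T/NK gate 8, 1, 11 and 75. The label calls the cells lymphoma, whereas the tumour gate of the controls held a keratin and Epcam level of 5666 and 3070 CPM (UMIs of a gene per 1000000 UMIs of the gate in that library) against 0.829 and 1.39 of B cell markers and 2.18 and 0.213 of T/NK markers. Hemoglobin genes took 281, 284, 77229 and 69173 CPM of the monocyte/macrophage gate, and 494396 and 314617 of the neutrophil gate with SP11. Between any 2 libraries, 60 to 359 barcodes were shared.

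Interleukin 1 is made as Il1b and Il1a, which signal through the same receptor. Il1b is made as a precursor that caspase-1 cleaves on an inflammasome such as that of Nlrp3. Il1rn encodes the soluble receptor antagonist that occupies the receptor without signalling, and Il1r2 encodes a decoy receptor that binds IL-1 and does not signal. IL-1 and TNF both free NF-kB from its inhibitors, and NF-kB then induces Nfkbia (IkB alpha, which holds NF-kB in the cytoplasm), Tnfaip3 (A20, a ubiquitin-editing enzyme) and Nfkbiz (IkB zeta, a nuclear cofactor needed for genes such as Il6). In tumors, monocytes, macrophages and neutrophils are the well-known sources of these cytokines.

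The members lie apart on GRCm38 except for Il1b (chr2:129364570-129371139, minus strand) and Il1a (chr2:129299610-129309972, minus strand), which neighbour each other, while Il1rn is on the same chromosome at chr2:24336853-24351494 (plus strand). Tnf is at chr17:35199381-35202007 (minus), Il6 at chr5:30013114-30019981 (plus), Il1r2 at chr1:40074079-40125231 (plus) and Nlrp3 at chr11:59541568-59566956 (plus). The feedback genes are at chr12:55489410-55492647 (Nfkbia, minus), chr10:19000910-19015657 (Tnfaip3, minus) and chr16:55811375-55838899 (Nfkbiz, minus). The annotation places antisense Il1bos over Il1b, Gm14023 over Il1a and Gm16894 over Il1r2, and whether counting used strand is not given in the sources used here. Those 3 genes held at most 1, 11 and 2 UMIs in any library, against up to 751, 21 and 87 for Il1b, Il1a and Il1r2, so Il1a is the member with the least certain counts.

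The 100 bases before the transcription start are shown for the 5 members with 1 RefSeq start and no annotated exon in that window, because they set cytokine genes beside a feedback inhibitor of the same pathway. They come from RefSeq on GRCm38 and are read on the gene's strand, 5′ to 3′. The windows are chr2:129371140-129371239 for Il1b, chr2:129309973-129310072 for Il1a, chr17:35202008-35202107 for Tnf, chr5:30013014-30013113 for Il6 and chr12:55492648-55492747 for Nfkbia. Capitals mark TATAAA or the 10-base NF-kB consensus, each searched on both strands, and the marked motifs do not overlap.
Il1b: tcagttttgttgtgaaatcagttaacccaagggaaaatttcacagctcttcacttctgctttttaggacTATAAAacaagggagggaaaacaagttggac
Il1a: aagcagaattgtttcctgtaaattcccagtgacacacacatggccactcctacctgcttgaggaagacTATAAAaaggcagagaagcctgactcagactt
Tnf: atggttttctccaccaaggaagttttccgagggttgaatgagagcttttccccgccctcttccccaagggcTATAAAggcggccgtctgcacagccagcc
Il6: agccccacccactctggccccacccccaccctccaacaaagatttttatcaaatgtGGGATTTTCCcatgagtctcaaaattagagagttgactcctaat
Nfkbia: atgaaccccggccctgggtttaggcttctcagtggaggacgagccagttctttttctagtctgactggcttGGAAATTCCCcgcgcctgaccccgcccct

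TATAAA was found in Il1b (position -31 from the start), Il1a (-32) and Tnf (-29), and in 5.56% of all 32851 RefSeq promoter windows of this length. The NF-kB consensus was found in Il6 (-44) and Nfkbia (-29), and in 2.995% of all windows. It was also found before 1 of the 2 RefSeq starts of Tnfaip3 (-12), whose windows are not shown. A match is a description of letters, and a window without one says only that those letters are not in these 100 bases. Of the 10 members, 9 had a RefSeq promoter entry, and Nfkbiz is named only.

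Myeloid cells held far more of the cytokine transcripts than tumour cells. Il1b stood at 333, 268, 560 and 591 CPM in the monocyte/macrophage gate and at 0.933, 0.640, 17.1 and 14.4 in the tumour gate. Tnf stood at 649, 410, 255 and 245 in the monocyte/macrophage gate against 0.622, 1.07, 4.56 and 2.16 in the tumour gate. Every monocyte/macrophage library lay above every tumour library for both genes.

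**Figure D1:**
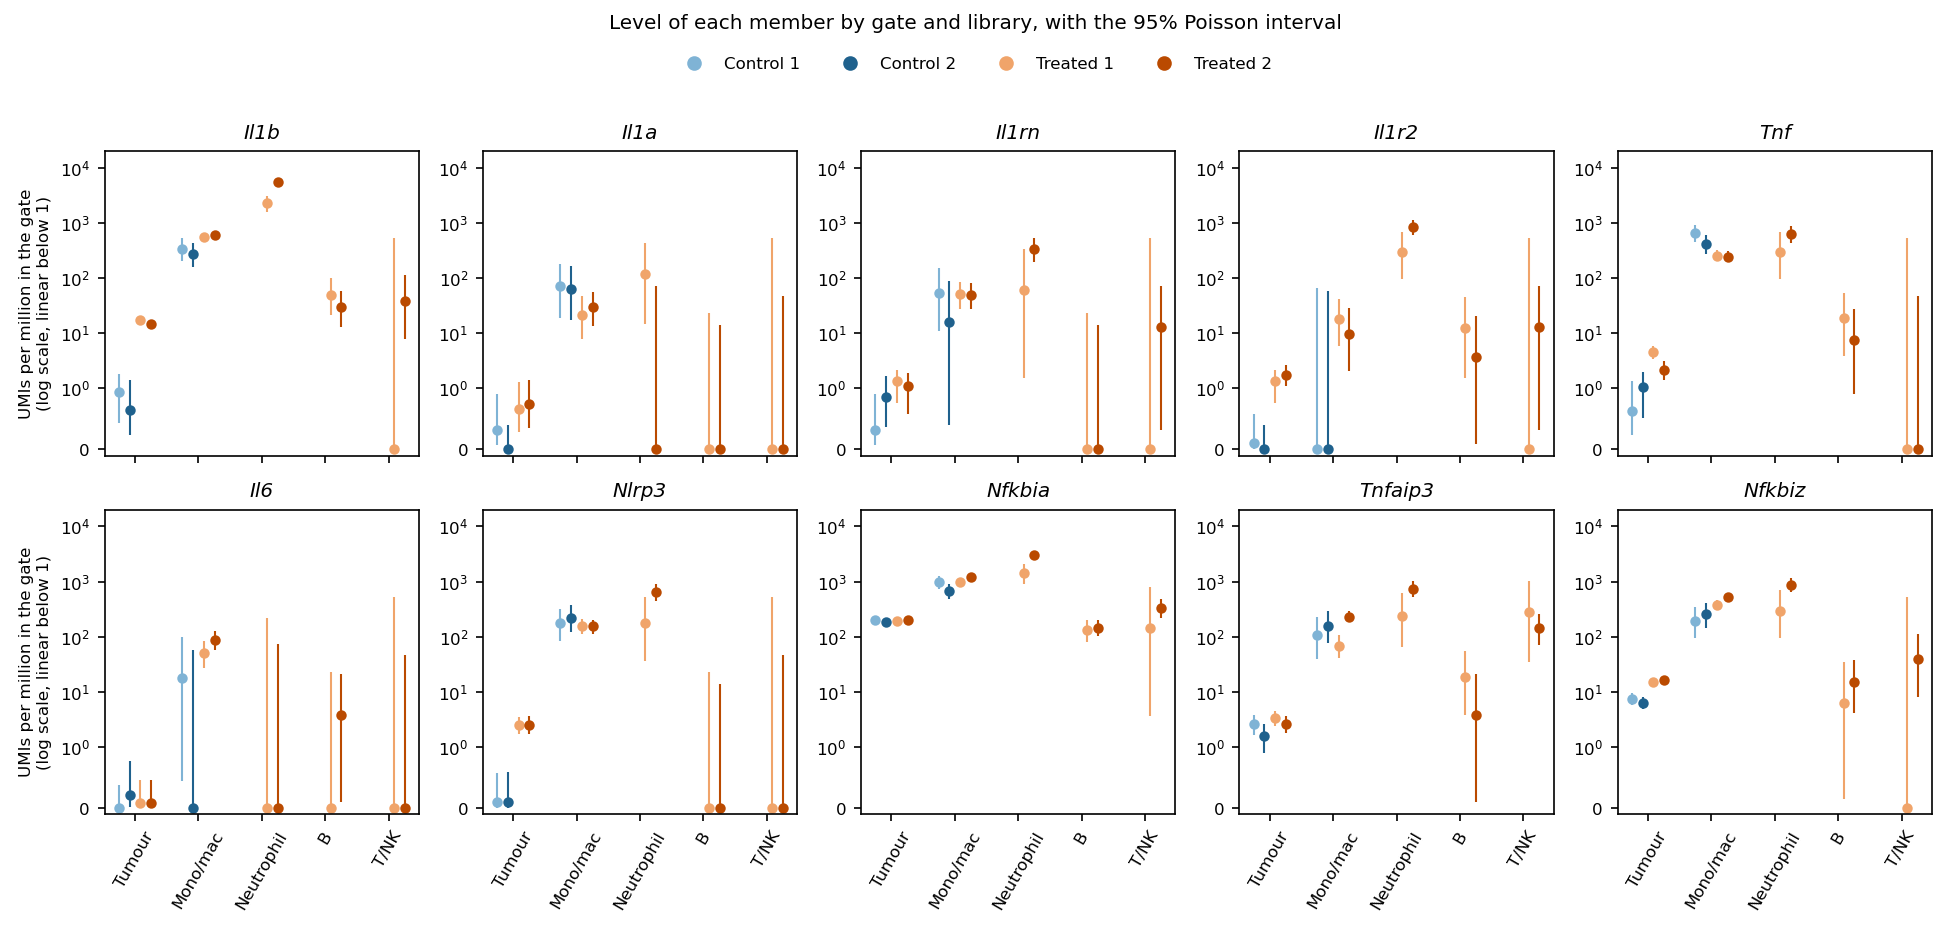
Level in CPM (log axis, linear below 1) for each member in gates with at least 10 cells, by library, with 95% Poisson intervals that cover counting error only. Il1b, Il1r2 and Nfkbia were highest in the neutrophil gate, Il6 was seen almost entirely in the monocyte/macrophage gate, and Nfkbia stood between 181 and 197 in the tumour gate of all 4 libraries.

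Il1a, Il1rn, Nlrp3, Tnfaip3, Nfkbiz and Nfkbia were also higher in the monocyte/macrophage gate of each library, while Il6 and Il1r2 were too sparse for an order in the controls. In the monocyte/macrophage gate Il1a stood at 70.2, 63.1, 21.5 and 29.4 CPM from only 4, 4, 6 and 9 UMIs. Il6 had 0 UMIs there and 2 in the tumour gate of Control 2, and Il1r2 had 0 there and 1 in the tumour gate of Control 1. Nlrp3 stood at 175, 221, 154 and 153 there, Tnfaip3 at 105, 158, 68.2 and 232, and Il1rn at 52.6, 15.8, 50.3 and 48.9. The highest of these in any tumour-gated library was Tnfaip3 at 3.32 CPM. The gap was smallest for Nfkbia, which stood at 983, 663, 998 and 1188 in the monocyte/macrophage gate and still at 196, 181, 189 and 197 in the tumour gate.

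Comparing both gates within the same libraries (edgeR, library as a block), all 8 tested members were higher in the monocyte/macrophage gate, where 19% of 10472 genes were called higher. The difference in log2 level was 7.27 ± 0.299 (SE) for Tnf, 6.83 ± 0.357 for Nlrp3, 6.03 ± 0.274 for Il1b and 2.21 ± 0.189 for Nfkbia. The adjusted p was 4.44e-127 for Tnf and 3.99e-30 for Nfkbia, and n was 4 libraries per gate. Il1b, Il1a, Il1rn, Tnf, Nlrp3 and Tnfaip3 passed the count filter only through the monocyte/macrophage gate, so their calls add no support. Nfkbia and Nfkbiz (4.835 ± 0.274, adjusted p = 1.85e-67) reached its limit in both gates. Il1r2 and Il6 were too low to be tested.

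Neutrophil-gated cells of the treated libraries carried still more Il1b per UMI. Il1b stood at 2253 and 5537 CPM in the neutrophil gate of Treated 1 and Treated 2 against 560 and 591 in the monocyte/macrophage gate of the same libraries. Il1r2 stood at 297 and 841 against 18.0 and 9.79, Nfkbia at 1423 and 3052 against 998 and 1188, and Nlrp3 at 178 and 646 against 154 and 153. In both libraries the neutrophil gate was the higher for each of these 4 genes, and Treated 2, with 50 cells, was above Treated 1, with 17, which is under the 20 cells asked for within the sub-gates.

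Of 7 members tested between these gates (edgeR, 2 libraries as a block), 6 were higher in the neutrophil gate, where 6.47% of 2255 genes were called higher and 6.12% lower. The log2 difference was 3.25 ± 0.420 (SE) for Il1b (edgeR adjusted p = 1.73e-12), 2.32 ± 0.589 for Tnfaip3 (0.00168) and 2.10 ± 0.577 for Nlrp3 (0.00449). It was 1.57 ± 0.410 for Nfkbia (0.00247), 1.54 ± 0.552 for Tnf (0.0438) and 5.94 ± 0.684 for Il1r2. With 5 and 3 UMIs in the monocyte/macrophage gate, Il1r2 passed the count filter only through the neutrophil gate, so its call adds no support. Nfkbiz stood at 297 and 880 against 377 and 519 and did not pass (adjusted p = 0.209). With erythroid marker UMIs left out of the totals, chosen after the data were seen, these levels became 586 and 1285 against 409 and 557, so that the order in Treated 1 turned, and Il1b stood at 4457 and 8078 against 607 and 634.5. The call of Il1b was kept with DESeq2 (adjusted p = 4.05e-04), as was that of Il1r2, and those of the other 4 were not. With hemoglobin genes left out of the sums, which was chosen after the data were seen, Tnf no longer passed (adjusted p = 0.117) and the other 5 did. A minimum of 500 detected genes leaves 1 and 10 neutrophil-gated cells, and no member passed there.

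Il6, the cytokine whose induction needs IkB zeta, was seen almost entirely in monocytes and macrophages, on 48 UMIs in all. The monocyte/macrophage gate held 14 of 15 Il6 UMIs in Treated 1 and 27 of 30 in Treated 2, and 1 of 1 and 0 of 2 in the controls. The neutrophil gate held 0 Il6 UMIs in both treated libraries, where 3 UMIs would be 178 and 58.7 CPM, so a level like that of the monocyte/macrophage gate (50.3 and 88.1) was not detectable at this depth in Treated 1. Lymphoid gates held little of any cytokine. The B cell gate of the treated libraries had no UMI of Il1a, Il1rn or Nlrp3, and Tnfaip3 stood at 284 and 141 CPM in the T/NK gate from 2 and 11 UMIs.

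**Figure D2:**
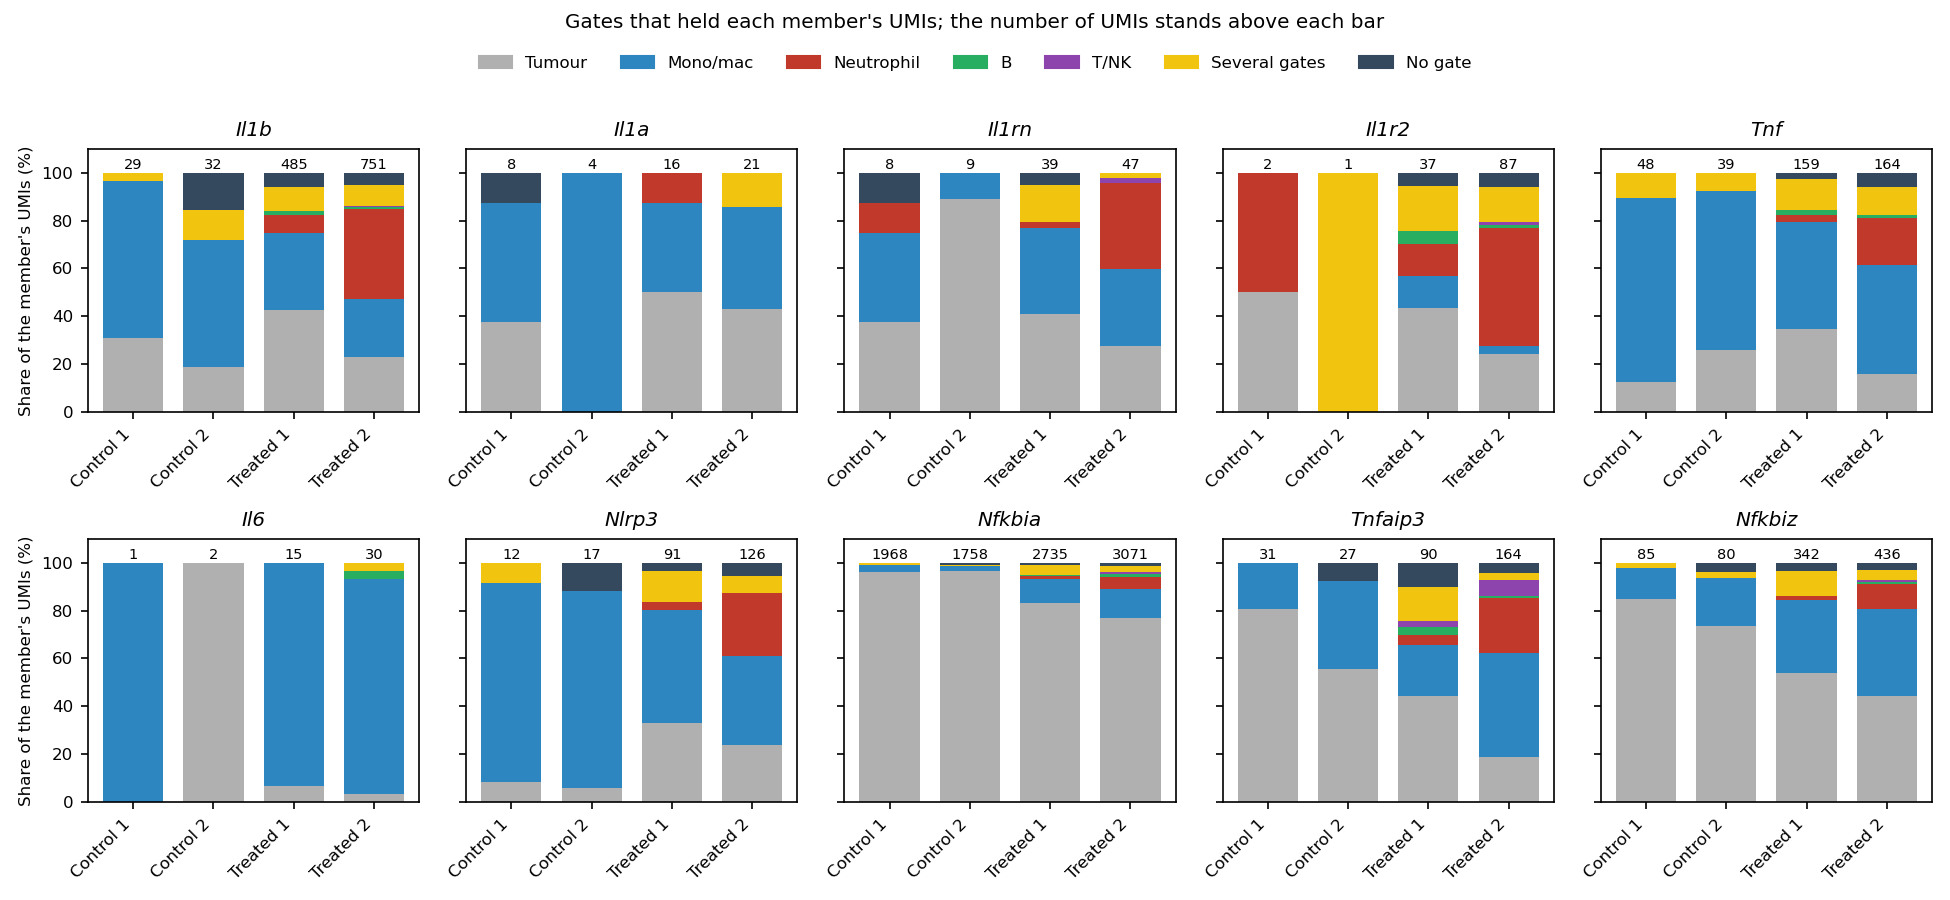
Share (%) of each member's UMIs found in each gate, by library, with the number of UMIs above the bar. In the controls the monocyte/macrophage gate held 65.5% and 53.1% of Il1b UMIs, and in the treated libraries the neutrophil gate added 7.84% and 37.7%.

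The gate that held most UMIs was a matter of cell number as well as level. The monocyte/macrophage gate was 3.49% and 3.71% of control cells and 12.6% and 12.9% of treated cells. For Il1b it held 65.5%, 53.1%, 32.2% and 24.1% of the library's UMIs, and for Tnf 77.1%, 66.7%, 44.7% and 45.7%. The neutrophil gate held 7.84% and 37.7% of Il1b and 13.5% and 49.4% of Il1r2 UMIs in Treated 1 and Treated 2. The tumour gate held 42.5% and 23.0% of Il1b and 43.2% and 24.1% of Il1r2 UMIs in these libraries, so that in Treated 1 it was the largest holder of both at a far lower level per UMI. The tumour gate held 96.3%, 96.4%, 83.3% and 77.0% of Nfkbia UMIs, since tumour cells were most of the UMIs counted. Over the whole suspension, more cells of a type and more RNA per cell cannot be told apart, which the gated values below address.

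With SP11, monocytes and macrophages held more Il1b and Nfkbiz and less Tnf per UMI. Il1b rose from 333 and 268 to 560 and 591 CPM, and Nfkbiz from 193 and 253 to 377 and 519. Tnf fell from 649 and 410 to 255 and 245. The libraries of the groups did not overlap for these 3 genes. Nor did they for Nfkbia, Nlrp3 and Il1a, which were not called, so this adds no support to the calls. The means were 301 ± 46.1 (SD, n = 2) against 575 ± 21.5 for Il1b, 223 ± 42.1 against 448 ± 100.2 for Nfkbiz and 530 ± 169 against 250 ± 7.26 for Tnf. More markers of other cell types were detected in this gate with SP11, where it held more cells. Neutrophil markers numbered 3, 2, 6 and 8 of 10, B cell markers 1, 0, 6 and 4 of 6 and T/NK markers 0, 0, 3 and 3 of 9. Their part in these changes was not tested.

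The log2 fold change in the monocyte/macrophage gate was 0.95 ± 0.323 (SE) for Il1b (adjusted p = 0.0352), 1.01 ± 0.352 for Nfkbiz (0.0411) and -1.06 ± 0.317 for Tnf (0.0144) by edgeR's quasi-likelihood test. Of 7 members tested, 2 were called higher and 1 lower, where 5.78% of 2492 genes were called higher and 5.1% lower. DESeq2 called none of the 3 (adjusted p = 0.156, 0.206 and 0.0856). With no low-count filter the calls of Tnf (edgeR adjusted p = 0.207) and Nfkbiz (0.0574) ended. That of Il1b ended at a minimum of 500 genes (0.0538) and that of Nfkbiz with a gate 2 times as strict (0.0605). The 3 calls also rest on all 4 libraries. Leaving out any 1 library ended that of Il1b, that of Tnf stayed only without Control 2 (adjusted p = 0.0349) and that of Nfkbiz only without Treated 1 (0.0102), while all 3 kept their direction.

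**Figure D3:**
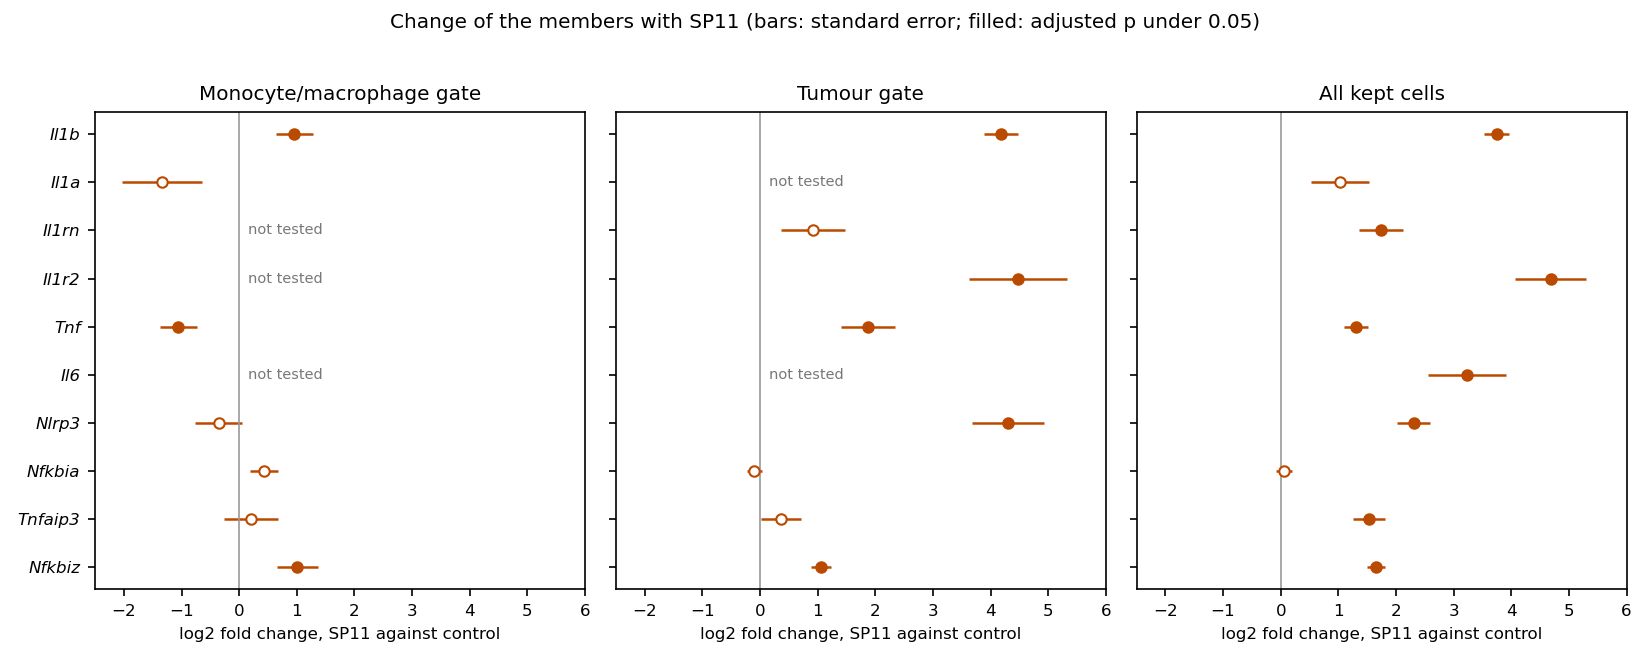
log2 fold change of each member, SP11 against control (x axis), with the standard error, in 3 sets of cells. Filled points passed an adjusted p of 0.05 in edgeR. Tnf lies at -1.06 in the monocyte/macrophage gate and at 1.87 and 1.31 in the tumour gate and over all kept cells.

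The remaining members of the monocyte/macrophage gate did not pass the test. Nfkbia differed by 0.43 ± 0.248 (adjusted p = 0.284), Tnfaip3 by 0.20 ± 0.466 (0.874), Nlrp3 by -0.36 ± 0.415 (0.667) and Il1a by -1.34 ± 0.695 (0.224) on the log2 scale by edgeR. Nfkbia, Nlrp3 and Il1a did not overlap between groups, and Il1a rests on 8 control and 15 treated UMIs. For Tnfaip3 the treated libraries lay on both sides of the controls. Il1rn, Il1r2 and Il6 were below the count filter there. Il6 had 1 control UMI and 41 treated ones, a ratio of summed levels of 8.44 with a counting interval of 1.43 to 341. Il1r2 had 0 control UMIs against 5 and 3 with SP11, too few for a fold.

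Within the monocyte/macrophage gate, cells were split into a monocyte sub-gate (Ccr2, Plac8 and related markers, with Ly6c2 at 0 in the monocyte/macrophage gate of all 4 libraries) and a C1q macrophage sub-gate. The direction for Il1b was the same in both, with 446, 381, 894 and 662 CPM in the monocyte sub-gate and 247, 228, 305 and 537 in the C1q sub-gate. Tnf stood at 828, 838, 347 and 216 in monocytes, where the groups lay far apart. In C1q macrophages it stood at 452, 114, 190 and 268, where they overlapped. Nfkbiz stood at 247, 114, 393 and 602 in C1q macrophages and at 191, 419, 438 and 481 in monocytes. The controls held only 9 and 10 monocytes and 13 and 7 C1q macrophages, under the 20 cells set for a test of SP11 within a sub-gate, so these are values without one.

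Between the sub-gates of the treated libraries themselves, no member differed past the threshold in edgeR. Il1b was 0.78 ± 0.256 higher in monocytes on the log2 scale (edgeR adjusted p = 0.183, unadjusted 0.00612), higher in both libraries, and the other 6 tested members had adjusted p from 0.585 to 0.942. At an unadjusted p under 0.05 Il1b was the only one of the 7, and DESeq2 called none. Of 2006 genes, 0.349% were called higher and 0.897% lower.

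The share of monocyte/macrophage-gated cells with at least 1 UMI gave the same directions when each cell was thinned to 500 UMIs. For Il1b it was 18.8%, 19.0%, 21.6% and 27.7%, for Nfkbiz 12.5%, 4.76%, 16.9% and 26.2%, and for Tnf 21.9%, 23.8%, 14.3% and 12.1%. The treated libraries lay above both controls for Il1b and Nfkbiz and below both for Tnf. The exact permutation p was 0.333 for each, the smallest that 2 against 2 libraries allow. Unthinned, the Il1b shares were 25.0%, 38.1%, 32.5% and 48.2%, at median depths of 1597, 2668, 1015 and 1883 UMIs per cell, and those of Nfkbiz 21.9%, 52.4%, 37.7% and 56.7%, where the groups overlapped. In the B cell gate of the treated libraries, which should lack Il1b, the thinned share was 1.30% and 0.671%.

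Tumour-gated cells held far less of these cytokines per UMI, and with SP11 their Il1b level in CPM did not stand above that of B cells. Il1b went from 9 and 6 UMIs to 206 and 173 (log2 fold change 4.18 ± 0.292, edgeR adjusted p = 2.01e-07). The count filter was passed only through the treated libraries, so this call adds no support. In the treated libraries 0.958% and 0.864% of thinned tumour-gated cells had an Il1b UMI, against 1.30% and 0.671% of thinned B-gated cells, which should lack Il1b, at median depths of 8805 and 19792 against 862.5 and 1590 UMIs. Unthinned, the shares were 11.01% and 13.3% against 3.25% and 4.70%. The level was 17.1 and 14.4 CPM in the tumour gate and 49.6 and 29.8 in the B cell gate. The tumour gate thus exceeded the B cell gate neither in level nor, beyond counting error, in thinned share. It exceeded the B cell gate in unthinned share at its greater depth. Level and thinned share are scaled to depth, so they do not compare the gates per cell. Counted by cells, there were 206 Il1b UMIs in 1253 tumour-gated cells and 173 in 579, against 8 in 154 and 8 in 149 B-gated cells. Whether tumour cells themselves express Il1b was not tested, and the B cell level rests on 8 UMIs in each library.

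In the tumour gate 5 of 8 tested members were called higher and none lower, where 1.79% of 11551 genes were called higher and 0.537% lower. Besides Il1b these were Tnf (1.87 ± 0.468, edgeR adjusted p = 0.0416), Nfkbiz (1.06 ± 0.180, 0.00228), Il1r2 and Nlrp3. Il1r2 (1, 0, 16 and 21 UMIs) and Nlrp3 (1, 1, 30 and 30) passed the count filter only through the treated libraries. So did Il1b and Tnf, which did not reach its limit in both controls. The calls of Il1b, Tnf, Il1r2 and Nlrp3 therefore add no support. Tnf stood at 4.56 and 2.16 in the treated tumour gates, Nlrp3 at 2.49 and 2.50 and Nfkbiz at 15.3 and 16.1. The B cell gate held 3 and 2 UMIs of Tnf, 0 and 0 of Nlrp3 and 1 and 4 of Nfkbiz, too few to order the gates for these genes (3 UMIs there are 18.6 and 11.2 CPM). The call of Tnf ended with Scrublet doublets removed (edgeR adjusted p = 0.137) and with no low-count filter (0.241). It also ended without Treated 1 (log2 fold change 1.18) and without Control 1 (1.55). That of Il1r2 ended with no low-count filter (edgeR adjusted p = 0.0673) and without Control 2 (log2 fold change 3.61). DESeq2 kept only Il1b, Nfkbiz and Nlrp3. Il1r2 had 1 control UMI and 37 treated ones, a ratio of 29.3 with a counting interval of 4.94 to 1186. Nlrp3 had 2 and 60 UMIs, a ratio of 23.7 with an interval of 6.29 to 200.4.

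Transcripts of other cell types moved in the same direction in the tumour gate. Summed over their marker lists, monocyte/macrophage markers (11 or 12 of 12 detected per library) stood at 19.1, 19.1, 88.6 and 45.6 CPM and neutrophil markers (5 to 10 of 10) at 68.5, 77.3, 143 and 148. B cell markers (2, 2, 6 and 6 of 6 detected) stood at 0.829, 1.39, 50.05 and 34.3. The neutrophil genes Camp, Ltf, Mmp8 and Ngp were at 0 in both controls, Cxcr2 also in Control 2, and Ltf, Mmp8 and Ngp in Treated 1. A set of tumour-gated cells without any monocyte/macrophage or neutrophil marker UMI was chosen after the data were seen. There Il1b stood at 0, 0, 6.53 and 3.73 CPM, from 0, 0, 20 and 5 UMIs. It passed the count filter only through the treated libraries, so its call there adds no support. Nfkbiz stood at 6.46, 8.76, 14.4 and 11.9 and did not pass (adjusted p = 0.342, edgeR). B cell markers were at 50.6 and 32.9 CPM in the treated cells of that set as well, and hemoglobin genes stood at 457, 423, 11158 and 3091 CPM over that set.

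Nfkbia was the member with the highest level in the tumour gate, and it did not pass the test there. It stood at 196, 181, 189 and 197 CPM in the tumour gate, with overlapping groups (log2 fold change -0.09 ± 0.125, edgeR adjusted p = 0.781). Of the tumour-gated cells without a myeloid marker UMI, 79.8%, 80.9%, 72.4% and 91.0% had an Nfkbia UMI. The B cell gate stood lower, at 130 and 145. Tnfaip3 stood at 2.59, 1.60, 3.32 and 2.58 in the tumour gate and did not pass either (0.36 ± 0.343, adjusted p = 0.677), nor did Il1rn (0.92 ± 0.549, 0.465).

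Whether SP11 acted differently in the 2 gates was tested in 1 edgeR fit with a gate by SP11 term, chosen after the data were seen. On the log2 scale the effect was lower in the monocyte/macrophage gate than in the tumour gate by 2.95 ± 0.490 for Il1b (adjusted p = 8.51e-07). For Tnf it was lower by 2.62 ± 0.556 (7.21e-04). Of 11466 genes, 0.497% were called lower and 0.523% higher. Nlrp3 was called as well (lower by 4.29 ± 1.06), but from 1 UMI in the tumour gate of each control, so that call adds no support. For the other 7 members the adjusted p ranged from 0.0828 (Nfkbia, 0.78 ± 0.238) to 1. The tumour side rests on low levels, with 15 control UMIs for Il1b, 16 for Tnf and 2 for Nlrp3, and whether tumour cells express these genes was not tested.

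Over all kept cells, 8 of the 10 members rose with SP11, where 9.11% of 12149 genes were called higher and 1.63% lower. Il1b went from 2.98 and 3.34 to 37.3 and 57.7 CPM (log2 fold change 3.74 ± 0.209, adjusted p = 3.33e-10, edgeR). Tnf, which fell per UMI in monocytes and macrophages, went from 4.93 and 4.07 to 12.2 and 12.6 over the suspension (1.31 ± 0.203, adjusted p = 1.48e-04). Nfkbiz rose by 1.65 ± 0.160, Nlrp3 by 2.31 ± 0.290, Tnfaip3 by 1.53 ± 0.271 and Il1rn by 1.74 ± 0.380. Il1r2 went from 3 to 124 UMIs in sum (ratio 30.7, counting interval 10.3 to 150.8) and Il6 from 3 to 45 (ratio 11.1, 3.57 to 56.0). Il1r2, Il6 and Il1rn did not reach the limit of the count filter in both controls. They passed it only through the treated libraries, so their calls add no support. DESeq2 called 6 of the 8, without Il1rn (adjusted p = 0.0591) and Il6 (0.0524), and the call of Il6 also ended without Treated 2 (0.0681, edgeR). Il1a (1.03 ± 0.498, adjusted p = 0.223) and Nfkbia (0.06 ± 0.132, 0.845) did not pass. The share of monocyte/macrophage-, neutrophil- and B-gated cells was higher in both treated libraries, so these sums mix cell number with level.

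The balance of agonist to antagonist was asked within each gate. In the monocyte/macrophage gate Il1b was 86.4%, 94.4%, 91.8% and 92.3% of the Il1b and Il1rn UMIs, and the Clopper-Pearson intervals of the controls (65.1% to 97.1% and 72.7% to 99.9%) held both treated values. The means were 90.4% ± 5.71 (SD, n = 2) and 92.1% ± 0.412 (exact permutation p = 1). With Il1a counted as agonist and Il1r2 as antagonist, the agonist share was 88.5%, 95.5%, 89.5% and 91.3%, and the groups overlapped again. Shares compare UMIs without a length correction, so they show the balance between libraries and not molecules of protein.

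**Figure D4:**
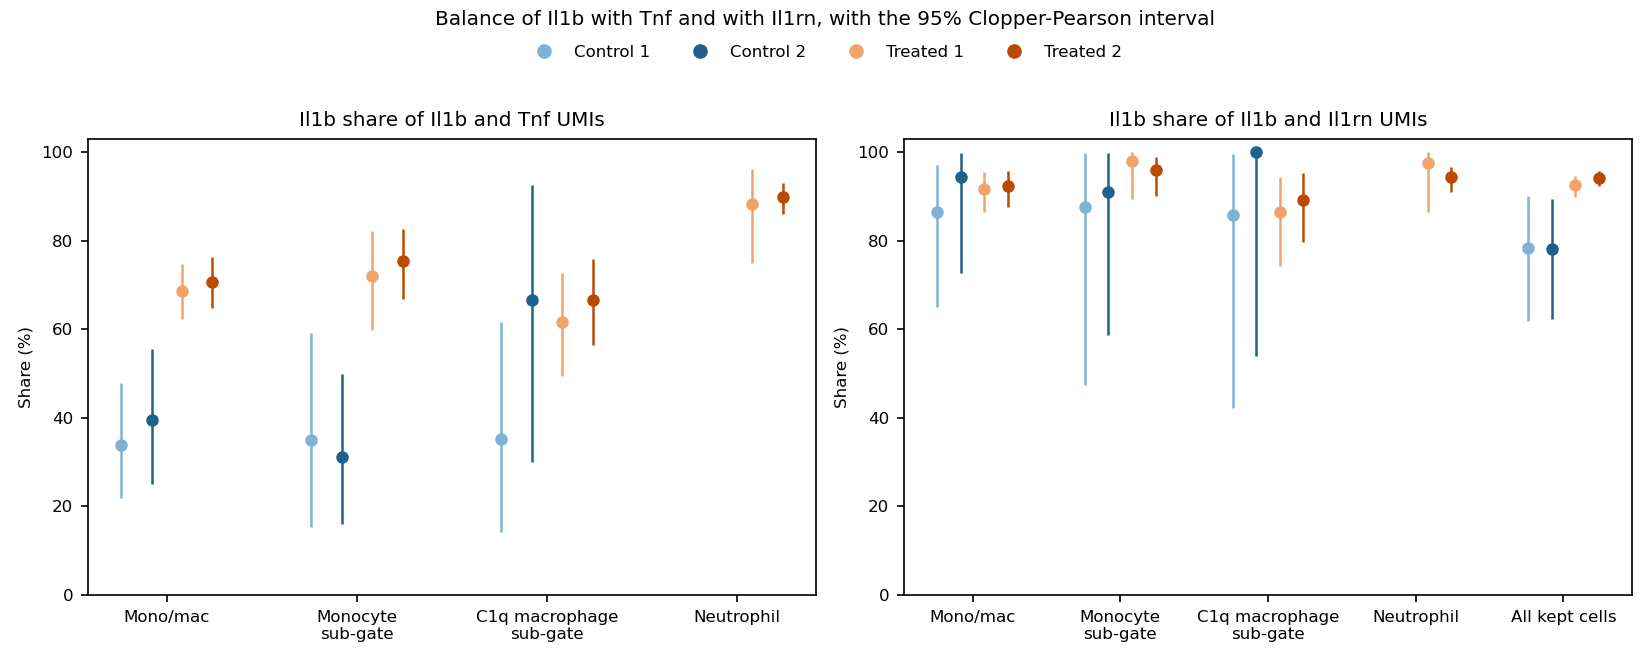
Il1b UMIs as a share (%) of Il1b and Tnf UMIs (left) and of Il1b and Il1rn UMIs (right), by gate and library, with 95% Clopper-Pearson intervals for counting error. Against Tnf, the monocyte/macrophage gate moved from 33.9% and 39.5% to 68.7% and 70.7%, and against Il1rn the groups overlapped in that gate.

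Over all kept cells the Il1b share of Il1b and Il1rn UMIs was 78.4%, 78.0%, 92.6% and 94.1% (means 78.2% ± 0.233 and 93.3% ± 1.10, exact permutation p = 0.333, the smallest possible). In the monocyte/macrophage gate the control shares rest on 3 and 1 Il1rn UMIs, and their intervals also hold the 78.4% and 78.0% of the suspension, so a shift of that size was not detectable there. Neutrophil-gated cells of the treated libraries had 97.4% and 94.3% Il1b, and the monocyte sub-gate went from 87.5% and 90.9% to 98% and 95.96% on 2 control and 5 treated Il1rn UMIs. In C1q macrophages it was 85.7%, 100%, 86.5% and 89.2%, the other way on average. Both are descriptions, given the few control cells of the sub-gates.

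Both antagonists were found in both myeloid gates, with Il1rn at 59.3 and 333 CPM in the neutrophil gate of the treated libraries against 50.3 and 48.9. Il1r2 was 83.3% and 71.7% of Il1r2 and Il1rn UMIs in the neutrophil gate of Treated 1 and Treated 2, with intervals from 35.9% to 99.6% and 58.6% to 82.5%. In the monocyte/macrophage gate of the same libraries it was 26.3% and 16.7%, with intervals from 9.15% to 51.2% and 3.58% to 41.4%. The intervals did not overlap in Treated 2, which held 60 antagonist UMIs in its neutrophil gate. They did in Treated 1, which held 6, and the difference between the gates was not tested. In the monocyte/macrophage gate Il1rn had 4 and 29 UMIs in the control and treated sums and Il1r2 had 0 and 8.

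The share of Il1b against Tnf was examined after the data were seen, and since it pairs a gene called higher with one called lower in this gate, it restates those calls and adds no independent support. Control libraries had 0.514 and 0.654 Il1b UMIs per Tnf UMI, treated libraries 2.20 and 2.41. The Il1b share was 36.7% ± 3.96 (SD, n = 2) and 69.7% ± 1.40 (exact permutation p = 0.333, the smallest possible), and the counting intervals of the controls lay below those of the treated libraries. Hemoglobin UMIs do not enter this share. In the monocyte sub-gate it went from 35.0% and 31.3% to 72.1% and 75.4%, while in C1q macrophages it was 35.3%, 66.7%, 61.6% and 66.7% and the groups overlapped. Neutrophil-gated cells of the treated libraries stood at 88.4% and 89.8%.

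Of 71 other genes of these pathways, listed with earlier results of these data known, 28 could be tested in the monocyte/macrophage gate, and 1 rose and 3 fell, counts near the 5.78% and 5.1% over all genes (median log2 fold change 0.40, against 0.01 over all genes). Dusp1, a phosphatase that ends MAP kinase signalling, rose from 175 and 94.7 to 320 and 538 CPM (1.70 ± 0.397, adjusted p = 8.40e-04, edgeR). Ccl2, which recruits monocytes, went from 1141 and 1531 to 255 and 385 (-2.05 ± 0.260, adjusted p = 1.12e-12), and Ccl4 from 404 and 395 to 133 and 209 (-1.20 ± 0.347, 0.0110). The third, Saa3, an acute phase gene, was called although its libraries overlapped, at 211, 1768, 542 and 512. Cxcl2, a neutrophil chemokine, was the most abundant of the genes that did not pass, at 3018, 2383, 3455 and 3433 (adjusted p = 0.312).

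The tumors were digested at 37 °C, and early response genes that digestion can induce were not uniform. Of 12 such genes 10 were tested in the monocyte/macrophage gate, and Egr1 (158, 379, 790 and 943 CPM) and Nr4a1 (0, 31.6, 126 and 75.05) rose while Jun (1316, 1026, 751 and 675) fell. Nr4a1 passed the count filter only through the treated libraries, so its call adds no support. Fos stood at 684, 726, 1289 and 979 and did not pass (adjusted p = 0.0516, edgeR), nor did Junb (0.169) or Ier2 (0.581). The list as a whole stood at 4563, 4450, 5405 and 5749 CPM, higher in both treated libraries, as Il1b and Nfkbiz were, and its part in their change was not tested.

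In the tumour gate 4 of 54 tested pathway genes rose and none fell, beside 1.79% and 0.537% over all genes (median log2 fold change 0.14, against -0.01 over all genes). Nfkb2, the p100 subunit, went from 22.2 and 23.3 to 38.4 and 35.2 CPM (0.57 ± 0.140, edgeR adjusted p = 0.0376) and Cxcl2 from 12.1 and 7.25 to 56.1 and 34.3 (2.10 ± 0.249, 7.06e-05). Cxcl2 stood far above these levels in the monocyte/macrophage gate, at 3455 and 3433 in the treated libraries, and monocyte/macrophage, neutrophil and B cell markers were higher in the treated tumour gates as well, as given above. Their part in these changes was not tested. Ltb had 1 UMI in the control sum and 66 in the treated sum (ratio 52.2, counting interval 9.05 to 2092), and Icam1 3 and 36 (ratio 9.49, 2.998 to 48.2). Ltb and Icam1 passed the count filter only through the treated libraries, so their calls add no support. Of the digestion list, 11 genes were tested there and none passed. Its sum stood at 748, 677, 667 and 642 CPM, with Jund, Egr1, Junb and Ier2 the most abundant.

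Over all kept cells 26 of 64 tested pathway genes rose and none fell, beside 9.11% higher and 1.63% lower over all genes. Of those called with at most 3 UMIs in the controls, Nfkbid, an atypical IkB protein, went from 3 to 116 UMIs (ratio 28.7, counting interval 9.58 to 141), Tnip3, a partner of A20, from 3 to 86 (ratio 21.3, 7.04 to 105.2) and Ptgs2, the inducible cyclooxygenase, from 2 to 52 (ratio 19.3, 5.08 to 164). Irak3, an inhibitor of IL-1 receptor signalling, went from 0.308 and 0.104 to 2.54 and 2.46 CPM (3.38 ± 0.564, adjusted p = 3.23e-04, edgeR), and Ltb from 1.23 and 0 to 9.15 and 18.7. Nfkbid, Tnip3, Ptgs2, Irak3 and Ltb passed the count filter only through the treated libraries, so their calls add no support.

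Of the 5 chemokine genes on the list, 1 was called higher and 2 lower in neutrophils than in monocytes and macrophages of the treated libraries, while Cxcl1 (adjusted p = 0.209) and Ccl3 (0.823) did not pass in edgeR. Cxcl2 stood at 3677 and 8824 CPM in the neutrophil gate against 3455 and 3433 (1.34 ± 0.369, adjusted p = 0.00449, edgeR), and Lcn2, a neutrophil granule gene, at 1245 and 802 against 0 and 3.26. Ccl4 had 0 UMIs in the neutrophil gate of both libraries against 37 and 64 (in Treated 1, 3 UMIs would be 178 CPM, above the 133 CPM of the other gate, so that 0 shows no difference there), Ccl2 had 0 and 1 against 71 and 118, and Saa3 0 and 1 against 151 and 157. Lcn2 passed the count filter only through the neutrophil gate, and Ccl4, Ccl2 and Saa3 only through the monocyte/macrophage gate. Their calls therefore add no support. Of 28 tested pathway genes 3 were higher and 3 lower in neutrophils, beside 6.47% and 6.12% over all genes, the third higher one being Birc3, whose libraries overlapped.

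Across 12 sums of a gate in a library (at least 20 cells each), the genes whose log2 level was most like that of Il1b were Marcks (Pearson r = 0.978), Plek (0.969) and Lrrc25 (0.963). For Il1rn they were Nfkbia (0.985), Gm5150 (0.973) and Cd300ld (0.968), and for Nfkbia they were Il1rn (0.985), Nfkbiz (0.967) and Junb (0.966). Among 11520 genes compared, members were thus among the nearest to 2 of the 3. The sums share libraries and differ most between cell types, so these values describe which cells hold a gene.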

How the data were processed

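Each of the 4 libraries was deposited by the authors as a matrix of raw UMI counts from Cell Ranger 7.1.0 (per the file headers). The submitters' processing notes name mm10, and the paper's text names hg38. From these counts, cells with at least 200 genes and at most 10% mitochondrial UMIs were kept, and gated by at least 3 marker UMIs and 10 (tumour), 20 (monocyte/macrophage, B, T/NK) or 50 (neutrophil) marker UMIs per 10000. Cells passing several gates were set apart. The gates' limits were chosen after the data were seen, 45 of 491 cells past the monocyte/macrophage limits lie within 2 times them, and members and gene lists were chosen with earlier results of these data known. The automatic limit of Scrublet (scanpy 1.11.5) marked 88.9% of Control 1 and 0.0546% of Treated 1, so a score of 0.25 served as alternative in every library (0.710% to 5.02% marked). UMIs were summed per library and gate, scaled to CPM (per 1000000 UMIs of the sum), and tested in edgeR 4.0.16 (R 4.3.3; TMM, filterByExpr, quasi-likelihood test, Benjamini-Hochberg over all genes tested, 0.05), with DESeq2 1.42.0 as alternative. Scripts were tested on simulated data. Intervals cover counting error only. All members were named; of the lists, up to 5 called genes per direction with groups that do not overlap, and up to 4 abundant uncalled ones.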

Additional observations from a re-analysis of the deposited data

Results flagged for a closer look

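The effect of SP11 on the UMIs of 3 members differed between gates by a test of the difference itself (a gate by SP11 term in edgeR). In the monocyte/macrophage gate minus the tumour gate it was -2.95 for Il1b, -2.62 for Tnf and -4.29 for Nlrp3 on the log2 scale, from 2 libraries per group. For Tnf the fitted changes were -1.06 in the monocyte/macrophage gate and 1.87 in the tumour gate. The tumour side rests on 15, 16 and 2 control UMIs of Il1b, Tnf and Nlrp3, so the call of Nlrp3 adds no support. Whether tumour cells express these genes was not tested. The difference is thus one between gates and is not shown to be one between cell types.

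Barcodes with under 200 detected genes, which no comparison used, held member transcripts in the treated libraries. There were 433 and 380 such barcodes in Treated 1 and Treated 2 and 12 and 1 in the controls. Il1b had 35 and 9 UMIs in those of Treated 1 and Treated 2 and 0 in those of both controls. Nfkbia had 15 and 8 against 1 and 0. In Treated 1, Tnf had 5 UMIs, Tnfaip3 5 and Nlrp3 4, with 0 in both controls. The controls had far fewer such barcodes to count in.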

How the results depend on the processing

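Of the members called in the monocyte/macrophage gate, 2 higher and 1 lower, DESeq2 kept 0 and 0, no low-count filter 1 and 0, and a minimum of 500 genes and a gate 2 times as strict 1 higher each. Leaving out 1 library gave 0 to 1 higher and 0 to 1 lower. Of 5 members higher in the tumour gate, DESeq2 and no low-count filter kept 3 each. Cells without a myeloid marker UMI kept 1, Il1b, which had 0 UMIs in both controls there. Removing Scrublet doublets left 4 of these and the same number of members called in every other comparison. Of 6 higher in neutrophils, DESeq2 and no low-count filter kept 2 each and the 500-gene minimum, which leaves 1 and 10 cells, 0, with Nfkbia at -0.65 and Nfkbiz at -0.023 on the log2 scale. The treated Il1b level of the monocyte/macrophage gate was 543 CPM under that minimum. Leaving out 1 library moved the log2 fold change of Tnfaip3 there from -0.75 to 0.99, that of Nfkbia over all kept cells from -0.031 to 0.14, and the Il1b share of Il1b and Il1rn by -2.39 to 5.69 percentage points. Differences in the thinned share of cells turned negative for Nlrp3 (-0.438 with the stricter gate, -0.00889 with 500 genes, -11.5 unthinned), Nfkbia (-1.61 unthinned) and Tnfaip3 (-8.94 at a mitochondrial limit of 20%, -8.68 unthinned). Where no count of cells is given, the cause was not tested. Over all genes, DESeq2 gave 29 higher and 76 lower calls in the monocyte/macrophage gate against 144 and 127, 104 against 207 higher in the tumour gate 644 against 1107 over all kept cells and 61 against 146 in neutrophils. With no low-count filter, lower calls in the monocyte/macrophage gate were 47, higher calls in the tumour gate 58 and in neutrophils 52, and the 500-gene minimum left 0 in neutrophils. Leaving out 1 library left 34 to 74 higher calls in the monocyte/macrophage gate, and tumour-gated cells without a myeloid marker UMI gave 54. Between the sub-gates, 7 genes were higher in monocytes, 1 by DESeq2 or with 500 genes, 16 with the stricter gate and 15 without hemoglobin genes. Of the member fold changes under alternatives, 402 kept direction and side of the threshold, 43 lost the call and 5 reversed. Whether the replicate numbers pair the samples cannot be told from 2 pairs (correlation of same-numbered deviations 0.0016 to 0.171). With the replicate block, the members called numbered 2 higher and 1 lower in the monocyte/macrophage gate and 5 in the tumour gate, where all genes called higher went from 207 to 594. The change within C1q macrophages was not run, with 13 and 7 control cells. Depth limits Il1a, Il1rn, Il1r2 and Il6 in every gate of the controls.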
